A study of Mus musculus with 12 samples.

Results

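AMPA receptor genes were followed here as 10 transcripts, the pore-forming subunits Gria1, Gria2, Gria3 and Gria4 and the auxiliary subunits Cacng2, Cacng3, Cacng8, Cnih2, Cnih3 and Shisa9. They were taken by name from the 55471 gene IDs of the deposited count table. All 10 were found, and all 10 were among the 19492 genes that passed the filter on low counts. The tissue was ventral CA1 (vCA1), the ventral part of hippocampal area CA1, from acute horizontal brain slices of wild-type male C57BL/6J mice aged 5 to 7 weeks. Slices of 400 µm rested for at least 3 h and were frozen 30 min after stimulation. From each slice 1 mm2 of vCA1 at the electrode sites was cut out, and 6 slices from different animals were pooled into each of the 12 samples. STET_S200 slices (3 samples) received strong tetanization in vCA1 and stimulation of the basolateral amygdala (BLA) named as 200 Hz, although the bracketed pulse rate in the same description is 100 Hz. STET_S100 slices (3 samples) received strong tetanization and BLA stimulation at 100 Hz. STET slices (3 samples) received strong tetanization alone, 3 trains of 100 pulses at 100 Hz, which is a protocol for late long-term potentiation. Control slices (3 samples) carried the same electrodes and received basal stimulation only. Each mouse gave 4 slices, 1 to each group, so animals recur across the groups, and which samples hold the same animals is not labelled.

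AMPA receptors are glutamate-gated channels that carry most fast excitatory transmission in the brain, and each is an assembly of GluA subunits encoded by Gria1 to Gria4. At the Schaffer collateral synapses of CA1, long-term potentiation is known to involve the delivery and retention of AMPA receptors at the postsynaptic membrane. Auxiliary subunits of the TARP family (Cacng genes), the cornichons (Cnih genes) and Shisa9, also called CKAMP44, bind the receptor and set its trafficking and gating. A subunit carrying arginine at the Q/R site in the pore, which is made by RNA editing of the Gria2 transcript, keeps calcium out of the channel.

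The stretch around that site is shown for the 4 pore-forming subunits because editing there, in Gria2, sets the calcium permeability of the channel. Each is 51 bases of the GENCODE M21 mouse transcript, 5′ to 3′, in lower case with the codon of the Q/R site in capitals.
Gria1: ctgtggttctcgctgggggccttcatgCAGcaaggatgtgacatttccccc
Gria2: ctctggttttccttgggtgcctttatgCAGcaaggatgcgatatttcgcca
Gria3: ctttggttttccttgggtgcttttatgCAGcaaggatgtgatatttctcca
Gria4: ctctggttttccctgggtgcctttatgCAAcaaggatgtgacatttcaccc
All 4 annotated transcripts carry a glutamine codon here, CAG in Gria1, Gria2 and Gria3 and CAA in Gria4. Relative to the Gria2 stretch, Gria3 differed at 4 of the 51 bases, Gria4 at 6 and Gria1 at 10. Editing changes the central A of the Gria2 codon after transcription, so the annotated sequence shows the unedited form, and counts per gene do not tell edited from unedited reads. Identity was taken over the longest stretch from start to stop codon in each gene's transcripts, with alignment gaps counted as differences. By this measure the 4 subunits were 65.7% to 70.4% identical to each other. Cacng2 and Cacng3 were 70.6% identical, Cacng3 and Cacng8 48.7%, and Cnih2 and Cnih3 44.5%. The stretches of Cacng8 (1170 bases) and Cnih3 (639 bases) differ from their annotated coding lengths of 1269 and 561 bases. The values with Cacng8 or Cnih3 are therefore not identities of the annotated coding sequences. No stretch of 75 bases was shared between the annotated transcripts of any 2 of the 10 genes. Cacng2 shares 5.86% of its exon length with the antisense gene A730060N03Rik, and the strand setting of the counting is not given in the sources used here.

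Libraries held 36.3 to 52.8 M counts in total. The 10 genes were covered deeply, from 1296 to 2037 reads per library for Cacng3, the lowest, and from 34991 to 47642 reads for Gria1, the highest. CA1 pyramidal markers summed to 2210 to 2399 CPM (reads scaled to the library size after trimmed mean of M values, TMM, adjustment) in STET_S200, 2124 to 2183 CPM in STET_S100 and 2072 to 2217 CPM in STET, against 2073 to 2354 CPM in Control. The 7 choroid plexus markers summed to 85.4 to 159 CPM in STET_S200, 114 to 4142 CPM in STET_S100 and 450.1 to 3335 CPM in STET, against 378 to 1914 CPM in Control, so the STET_S200 libraries did not overlap STET or Control in them. Fabp4, a marker of peripheral tissue, was above 1 CPM in 5 libraries (Control 3, STET 3, STET_S100 1, STET_S200 2 and STET_S200 3), with 7.08 CPM or more, and at 0.275 CPM or less in the other 7. None of the 64 marker genes in 11 lists passed the adjusted threshold of edgeR in any of 7 comparisons, with 2 to 9 at an unadjusted p under 0.05. In STET_S200 vs Control it was 9 of 64 (14.1%), beside 5.92% of all genes. Of 5 microglia markers there, 3 had an unadjusted p under 0.05 and 3 were lower without overlap, beside 5.28% of all genes. The median log2 fold change of that list was -0.22. All 7 choroid plexus markers were lower without overlap in the same comparison, 2 of them at an unadjusted p under 0.05. DESeq2 called the choroid plexus genes Ttr and Clic6 in STET_S200 vs STET, and these and Kcnj13 in STET_S200 vs STET_S100. In dissected tissue, a change in the share of a cell type and a change in RNA per cell cannot be told apart.

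Per length, Cnih2 and Gria1 were the most abundant of the 10 transcripts in vCA1, under each definition of length used. Cacng2 was the least abundant with exon unions and with longest transcripts, and Gria4 with coding lengths (32.4 CPM per kb, against 50.9 for Cacng2). Levels of different genes are compared as CPM per kilobase (kb) of exon, with the union of a gene's annotated exons as its length, over all 12 libraries. Cnih2, which promotes export of AMPA receptors and slows their closing, averaged 248 ± 11.5 CPM per kb (SD, n = 12). Gria1, encoding GluA1, averaged 159 ± 5.30 CPM per kb, and every library had more Cnih2 than Gria1. Cacng8, the TARP typical of the hippocampus, averaged 58.9 ± 2.06 CPM per kb and Gria2 55.4 ± 1.94 CPM per kb.
Their ranges overlapped, although Cacng8 was above Gria2 in 12 of 12 libraries. That order holds for exon unions alone: Gria2 was above Cacng8 in 12 of 12 libraries with longest transcripts, and averaged 325 against 109 CPM per kb with coding lengths. Cnih3 followed with 44.4 ± 2.59 CPM per kb, Gria3 with 22.8 ± 1.08 CPM per kb and Gria4 with 13.9 ± 0.54 CPM per kb. Cacng3 averaged 12.7 ± 0.94 CPM per kb, Shisa9 11.7 ± 0.77 CPM per kb and Cacng2, known as stargazin, 8.96 ± 0.31 CPM per kb. The ranges of Gria4 and Cacng3 overlapped, as did those of Cacng3 and Shisa9, while all other neighbours in this order had separate ranges. The order of the 10 group means by exon union was the same in all 4 groups.

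**Figure D1:**
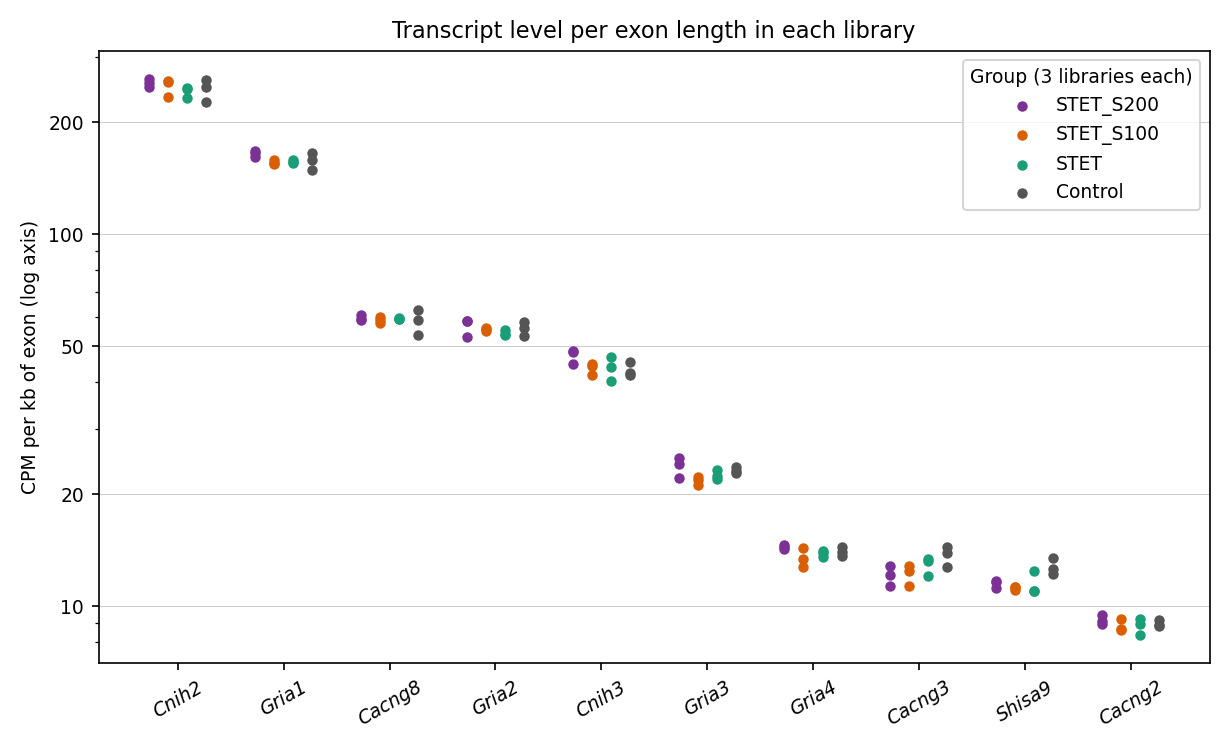
Level of each of the 10 transcripts in each library, as CPM per kb of exon on a log axis, with 3 libraries for each of STET_S200, STET_S100, STET and Control. The genes spread from 8.35 CPM per kb (lowest library, Cacng2) to 262 CPM per kb (highest library, Cnih2), and the 4 groups lie close together within each gene.

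Among the 4 pore-forming subunits, Gria1 made up the largest share of transcripts and Gria4 the smallest, under each definition of length. With exon union lengths, Gria1 took 63.3 ± 0.62% of the summed CPM per kb, Gria2 22.1 ± 0.48%, Gria3 9.08 ± 0.31% and Gria4 5.55 ± 0.16% (SD, n = 12). The share of Gria2 depended on the length it was divided by. Its exon union of 15548 bases joins the exons of all its annotated transcripts and exceeds its longest transcript of 10371 bases. With the longest transcript, Gria1 took 54.9 ± 0.69% and Gria2 26.3 ± 0.53%, and with the coding length Gria1 took 44.4 ± 0.68% and Gria2 40.9 ± 0.66%. The level ratio of Gria2 to Gria1 was therefore 0.349 with exon unions, 0.480 with longest transcripts and 0.923 with coding lengths. Gria1 was above Gria2 in 12 of 12 libraries under all 3 definitions, and with coding lengths the ranges of the 2 genes over the libraries overlapped. Gria3 and Gria4 stayed below both, at 10.6 ± 0.35% and 4.08 ± 0.12% with coding lengths.

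**Figure D2:**
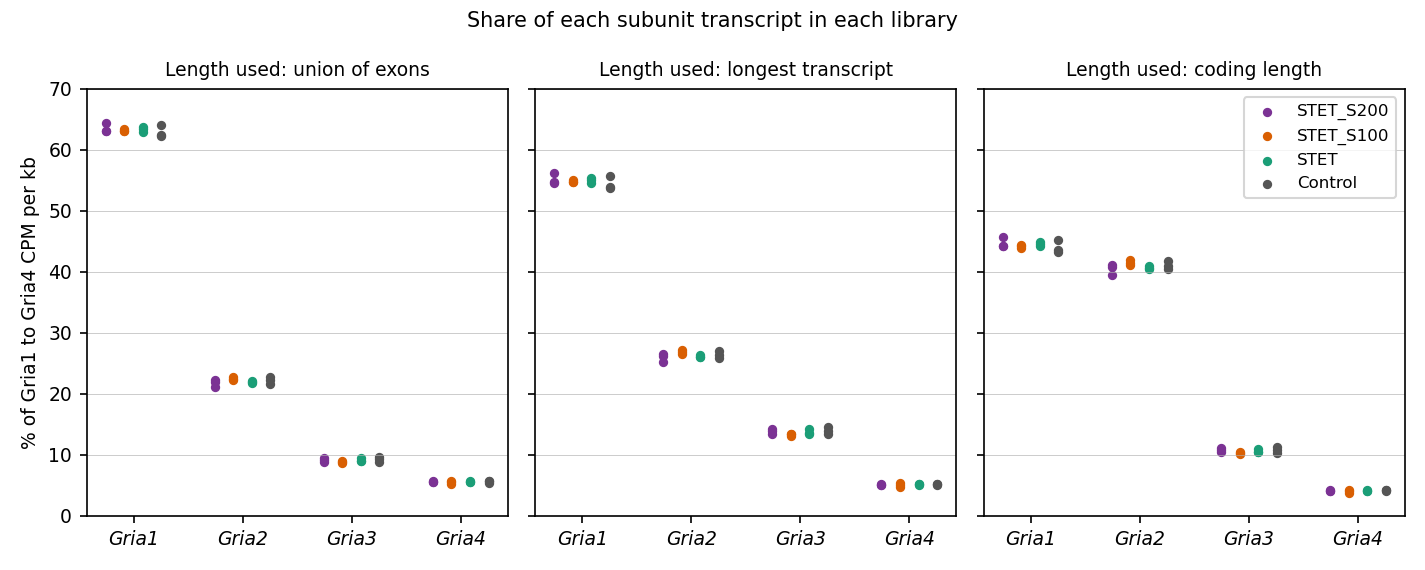
Share of Gria1 to Gria4 in their summed CPM per kb in each library, in percent, with length taken as the union of exons (left), the longest transcript (middle) or the coding length (right), for 3 libraries each of STET_S200, STET_S100, STET and Control. The length definition moves the mean Gria2 share between 22.1% and 40.9%, while the libraries of a panel lie within a few percent of each other.

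Among the auxiliary subunits followed here the shares were uneven too. Cacng4, Cacng5, Cacng7 and Cnih1 were not in these sums, so the values are not shares of whole families. Cacng8 made up 73.1 ± 1.40% of the summed Cacng2, Cacng3 and Cacng8 level with exon union lengths, Cacng3 15.8 ± 1.18% and Cacng2 11.1 ± 0.46% (SD, n = 12). With coding lengths Cacng8 still led with 55.2 ± 1.58%, and Cacng2 with 25.8 ± 0.84% was above Cacng3 with 18.9 ± 1.28%. Cnih2 made up 84.8 ± 0.81% of the summed Cnih2 and Cnih3 level with exon unions and 76.5 ± 1.14% with coding lengths.

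Against Control, no AMPA receptor gene passed the test 30 min after any of the 3 stimulation protocols. With edgeR's quasi-likelihood test and Benjamini-Hochberg adjustment over 19492 genes, 0 of the 10 genes were called in STET_S200 vs Control, STET_S100 vs Control or STET vs Control, and the share of all genes called was 0% in each. At an unadjusted p under 0.05, 3 of the 10 genes passed in STET_S200 vs Control (Shisa9, Cacng3 and Cnih3), where 5.92% of all genes did. The same count was 2 of 10 in STET_S100 vs Control (Shisa9 and Cacng3), beside 5.16% of all genes, and 1 of 10 in STET vs Control (Shisa9), beside 3.5%. Cacng3 and Cnih3 are named after their values were seen. DESeq2 called 4 genes in STET_S200 vs Control (0.0205%), 3 in STET_S100 vs Control (0.0154%) and 1 in STET vs Control (0.00513%), limma-voom called 0, and none of those was an AMPA receptor gene. Fold changes of the 10 genes lay between -0.18 and 0.13 on the log2 scale in STET_S200, between -0.19 and 0.02 in STET_S100 and between -0.15 and 0.02 in STET, each over Control. Their median was 0.04 in STET_S200, with 8 of 10 positive, beside a median of 0.0017 over all genes with 50.6% positive. In STET_S100 the median was -0.02 with 3 of 10 positive, beside 0.0019 and 50.8%, and in STET it was -0.02 with 2 of 10 positive, beside -0.00019 and 49.9%.

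**Figure D3:**
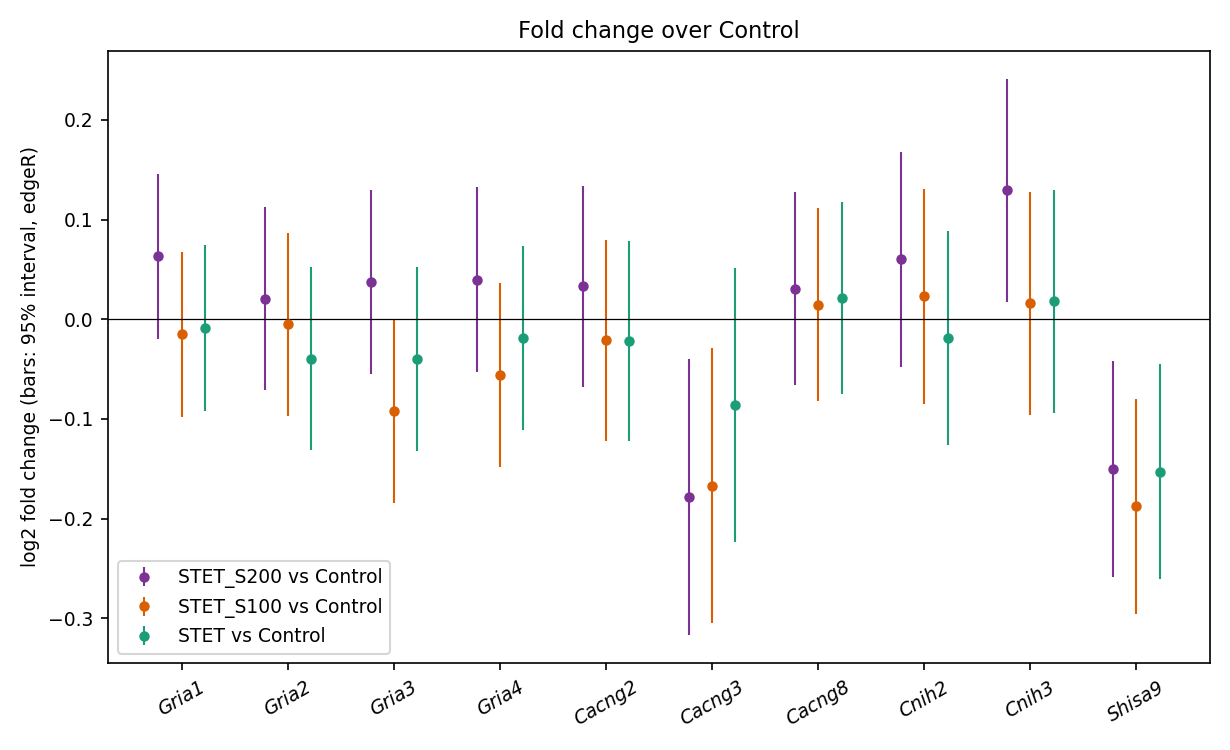
Log2 fold change over Control of each of the 10 genes in STET_S200, STET_S100 and STET slices (points), with 95% intervals from the edgeR fit (bars, 3 libraries per group). The points of Shisa9 lie between -0.19 and -0.15 and those of Cacng3 between -0.18 and -0.09, while the 4 pore-forming subunits lie between -0.09 and 0.06.

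The pore-forming subunits showed little spread in any group. Gria1 had 977, 1000.2 and 1008 CPM in STET_S200, 939.9, 935 and 953 CPM in STET_S100 and 936, 946 and 958 CPM in STET, against 901, 1001 and 956 CPM in Control. The Control libraries spanned the values of the STET and STET_S100 libraries, and 1 STET_S200 library lay above them all. Gria2 had 822, 905 and 905 CPM in STET_S200, 854, 869 and 864 CPM in STET_S100 and 837, 831 and 857 CPM in STET, against 825, 870.4 and 899.6 CPM in Control. Gria2 libraries overlapped in all 3 comparisons with Control. Gria3, encoding GluA3, had 218, 238 and 247 CPM in STET_S200, 208, 215 and 219 CPM in STET_S100 and 228, 217 and 220.0 CPM in STET, against 227, 225 and 233 CPM in Control. Here the 3 STET_S100 libraries were below the 3 Control libraries, with a log2 fold change of -0.09 ± 0.04 (SE) and an adjusted p of 0.902 by edgeR. It was 1 of 2 genes of the 10 that were lower without overlap in STET_S100 vs Control, where 4.93% of all genes were. In the 7 libraries with low Fabp4 the fold change of Gria3 was -0.06. Gria4, encoding GluA4, had 89.8, 90.6 and 92.0 CPM in STET_S200, 84.3, 80.1 and 90.3 CPM in STET_S100 and 88.5, 85.2 and 87.7 CPM in STET, against 85.9, 88.3 and 90.8 CPM in Control, and each stimulated group overlapped Control. Over the 4 subunits and 3 protocols, the 95% intervals of the fold over Control ran from 0.880 to 1.11.

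Shisa9 was the AMPA receptor gene with the smallest p in each of the 3 comparisons with Control. It had 60.7, 58.6 and 61.3 CPM in STET_S200, 59.0, 59.1 and 57.7 CPM in STET_S100 and 64.9, 57.6 and 57.6 CPM in STET, against 70.4, 65.8 and 63.9 CPM in Control. All STET_S200 and STET_S100 libraries were below all Control libraries, and STET 1 was above Control 3 while the other STET libraries were below all Control libraries. STET and Control libraries were also paired by number, a pairing taken from these data and not from the labels. STET was then the lower in 3 of 3 pairs for Shisa9 and for Cacng3, and in 1 or 2 of 3 for the other 8 genes. The share of all genes lower in 3 of 3 pairs was not counted, so these counts have no background and nothing is concluded from them. Numbers were not taken as pairs in STET_S200 vs Control. There the deviations of same-numbered libraries from their group means correlated with r = 0.21, -0.01 and 0.31. The log2 fold change over Control was -0.15 ± 0.05 in STET_S200 (SE; adjusted p = 0.786, edgeR), -0.19 ± 0.05 in STET_S100 (adjusted p = 0.902) and -0.15 ± 0.05 in STET (adjusted p = 1.00). It was the only gene of the 10 lower without overlap in STET_S200 vs Control, beside 5.28% of all genes. The 3 comparisons share the same Control libraries. Averaged over STET_S200, STET_S100 and STET, the log2 fold change over Control was -0.16 ± 0.04, a decrease by 10.7%, with an adjusted p of 0.845 by edgeR. In that average comparison 2 of the 10 genes had an unadjusted p under 0.05, beside 5.47% of all genes, edgeR called 0 of all genes, and DESeq2 called 7 (0.0359%), none of them among the 10. None of the 10 was separate between all 9 stimulated and all 3 Control libraries, where 0.549% of all genes were higher and 0.441% lower without overlap. Among the 7 libraries with low Fabp4, the 5 stimulated ones had 57.6 to 64.9 CPM of Shisa9 and the 2 Control ones 65.8 and 70.4 CPM. Among the 5 with Fabp4 above 1 CPM, the 4 stimulated ones had 57.6 to 61.3 CPM and the Control one 63.9 CPM. The fold change of STET_S200 over Control was -0.16 with the choroid plexus markers as a covariate. The choroid plexus marker sums of STET_S200 and Control did not overlap, so that fit cannot tell group from choroid plexus content. Shisa9 is known to be abundant in dentate granule cells, and dentate granule markers summed to 70.9 to 187 CPM in STET_S200, 120.0 to 168 CPM in STET_S100 and 128 to 169.7 CPM in STET, against 81.8 to 179.8 CPM in Control. These sums overlapped between all groups, and their part in the Shisa9 values was not tested.

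**Figure D4:**
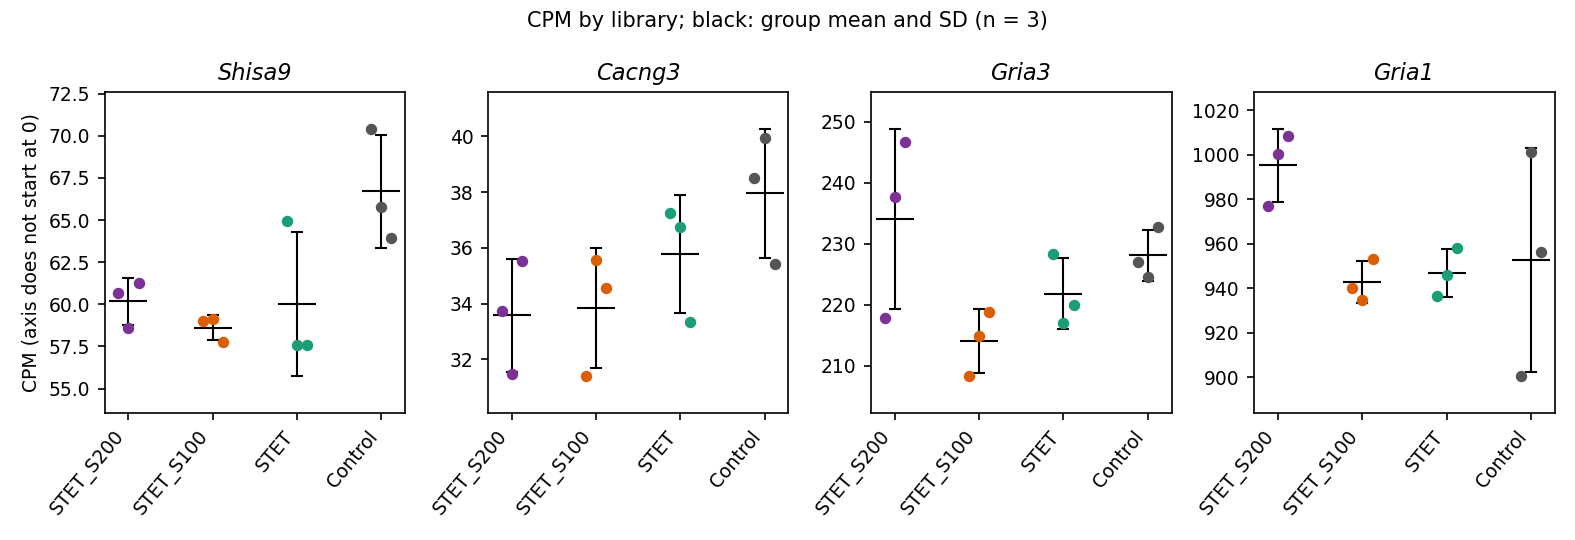
CPM of Shisa9, Cacng3, Gria3 and Gria1 in each library (points), with the mean and SD of each group of 3 libraries (black), on axes that do not start at 0. Shisa9 of STET_S200 and STET_S100 lies below all Control libraries, and the Gria1 values of STET_S200 lie above those of STET_S100 and STET but not of Control.

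Among the 10 genes, no TARP or cornichon gene was separate from Control in any stimulated group. Cacng3, a TARP, had 33.7, 31.5 and 35.5 CPM in STET_S200, 31.4, 35.5 and 34.6 CPM in STET_S100 and 37.2, 36.7 and 33.3 CPM in STET, against 38.5, 39.9 and 35.4 CPM in Control. Control 3 was its lowest Control library and lay below 1 library of STET_S200, 1 of STET_S100 and 2 of STET. Its log2 fold change over Control was -0.18 ± 0.07 in STET_S200 (SE; adjusted p = 0.809, edgeR), -0.17 ± 0.07 in STET_S100 (adjusted p = 0.902) and -0.09 ± 0.07 in STET (adjusted p = 1.00). Over the 12 libraries Cacng3 had the largest coefficient of variation of the 10 genes, 7.37%, followed by Shisa9 with 6.62%, and Gria1 the smallest, 3.34%. The median over tested genes of at least 10 CPM was 4.81%.
Cacng2 had 49.3, 50.3 and 52.2 CPM in STET_S200, 47.6, 47.8 and 50.7 CPM in STET_S100 and 49.3, 50.8 and 46.0 CPM in STET, against 50.6, 48.8 and 48.9 CPM in Control. Cacng8 had 137, 142 and 139 CPM in STET_S200, 138, 141 and 136 CPM in STET_S100 and 139, 138 and 138 CPM in STET, against 126, 138 and 147 CPM in Control. The Control libraries of Cacng8 spanned all 9 stimulated ones. Cnih2 had 341, 349 and 359 CPM in STET_S200, 352, 351 and 319 CPM in STET_S100 and 319, 336 and 339 CPM in STET, against 310.2, 355 and 341 CPM in Control. Cnih3 had 123, 134 and 133 CPM in STET_S200, 115, 123 and 122 CPM in STET_S100 and 121, 111 and 129 CPM in STET, against 117, 115 and 124 CPM in Control. Its log2 fold change in STET_S200 over Control was 0.13 ± 0.05 (SE; adjusted p = 0.828, edgeR), the highest of the 10 genes, and STET_S200 1 lay below Control 3.

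Between the stimulated groups the question was whether adding BLA stimulation to strong tetanization changed AMPA receptor transcripts. No gene was called in STET_S200 vs STET, STET_S100 vs STET or STET_S200 vs STET_S100, neither among the 10 nor among all 19492 (0%), while 4.56%, 3.16% and 5.2% of all genes had an unadjusted p under 0.05. Of the 10 genes, 0, 0 and 3 had one (Gria3, Gria4 and Cnih3 in STET_S200 vs STET_S100). DESeq2 called 11 genes (0.0565%), 1 gene (0.00513%) and 5 genes (0.0257%) in the same order, and none of the 10. In STET_S200 vs STET, 9 of the 10 fold changes were positive, with a median of 0.06 on the log2 scale beside 0.0023 over all genes. Of 7 CA1 pyramidal markers, 6 were positive there, 1 of them higher without overlap, with a median of 0.05. The sums of these markers overlapped, and their part was not tested. Gria1, Gria4 and Cnih2 were higher in every STET_S200 library than in every STET library, 3 of 10 beside 6.22% of all genes, and none of the 10 was lower without overlap, beside 5.76%. Their log2 fold changes were 0.07 ± 0.04, 0.06 ± 0.04 and 0.08 ± 0.05 (SE), with an adjusted p of 0.938 each by edgeR. The smallest p belonged to Cnih3, whose log2 fold change was 0.11 ± 0.05 with the same adjusted p, and its libraries overlapped. In this comparison the choroid plexus marker sums did not overlap, so a fit with those markers as a covariate cannot tell group from choroid plexus content. In that fit the fold change was 0.09 for Gria1, -0.01 for Gria4, 0.18 for Cnih2 and 0.06 for Cnih3. In STET_S200 vs STET_S100, 9 of 10 fold changes were positive with a median of 0.05, beside 0.0018 over all genes. Marker lists moved with this comparison: 6 of 7 CA1 pyramidal markers were positive, 3 of them higher without overlap, with a median of 0.05 and sums that did not overlap. All 7 choroid plexus markers were lower at an unadjusted p under 0.05, and with those markers as a covariate the fold change was 0.09 for Gria1 and 0.10 for Gria3. Dentate granule markers were positive in 0 of 5, with a median of -0.22, and CA3 and CA2 markers in 2 of 7, with a median of -0.17. Endothelial markers were positive in 0 of 4, with a median of -0.12, and oligodendrocyte markers in 5 of 5, with a median of 0.09. The part of the CA1 markers and of these further lists in the values of the 10 genes was not tested. Gria1 was again higher in every STET_S200 library, as were 4.57% of all genes (4.77% were lower), with a log2 fold change of 0.08 ± 0.04 and an adjusted p of 0.963. Gria3 had the smallest p, with a log2 fold change of 0.13 ± 0.04 and an adjusted p of 0.956, and STET_S200 1 lay within the STET_S100 range. With the 7 low-Fabp4 libraries, of which only 1 is STET_S200, the fold change was 0.05 for Gria1 and 0.01 for Gria3. In STET_S100 vs STET the fold changes ran from -0.08 to 0.04 with 3 of 10 positive, no gene of the 10 was separate between the groups (beside 4.73% of all genes higher and 4.87% lower), and Cacng3 had the smallest p with -0.08 ± 0.07 (adjusted p = 1.00). That value ranged from -0.13 without STET 3 to -0.03 without STET_S100 1, and was -0.05 without STET 1.

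The balance of Gria1 to Gria2 mRNA, which bears on how many receptors lack GluA2, differed from Control by less than the libraries spread. The log2 ratio of Gria1 CPM to Gria2 CPM was 0.25, 0.14 and 0.16 in the STET_S200 libraries, 0.14, 0.11 and 0.14 in STET_S100 and 0.16, 0.19 and 0.16 in STET, against 0.13, 0.20 and 0.09 in Control. Its mean was 0.161 ± 0.040 in the 9 stimulated libraries and 0.139 ± 0.058 in the 3 Control libraries (SD). The difference of 0.02 had p = 0.477 in an exact two-sided permutation test over 220 arrangements, whose smallest possible p is 0.00455. Without Control 3 the difference was -0.0033.

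**Figure D5:**
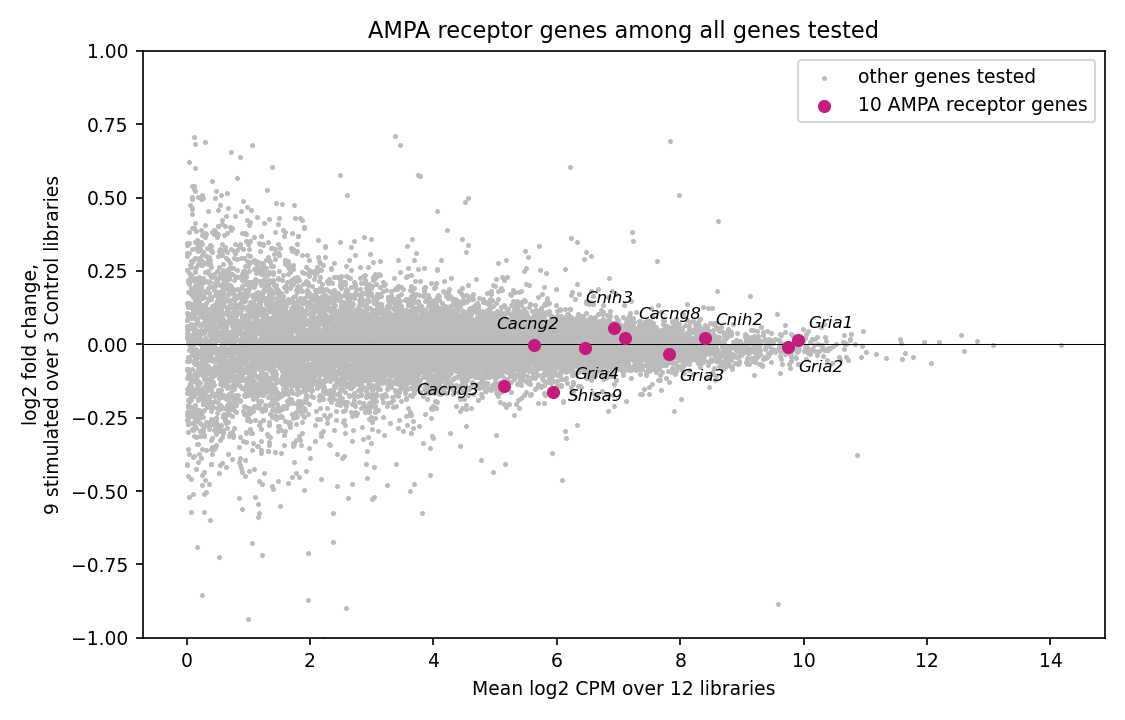
Log2 fold change of the 9 stimulated over the 3 Control libraries against mean log2 CPM, for the 10 AMPA receptor genes (coloured) and the other tested genes with a mean log2 CPM of at least 0 (grey). Of the 14950 genes of that abundance 10 lie outside the axis, and Shisa9 at -0.16 and Cacng3 at -0.14 are the lowest of the coloured points.

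The wider AMPA receptor machinery was described with 71 further genes in 5 lists, of which 70 were tested. Prrt2 did not pass the filter on low counts. None of the 70 passed the adjusted threshold of edgeR or limma-voom in any comparison, and DESeq2 called Arc alone, in STET_S100 vs Control and in all stimulated vs Control. At an unadjusted p under 0.05, 6 were higher and 1 lower in STET_S200 vs Control (10% of the 70), beside 5.92% of all genes in either direction. In STET_S100 vs Control 3 were higher and 1 lower (5.71% of the 70, beside 5.16% of all genes), and in STET vs Control 2 were higher and 2 lower (5.71%, beside 3.5%). In STET_S200 vs STET, 15 of the 70 were higher without overlap and 0 lower, beside 6.22% and 5.76% of all genes. There 8 of the 70 (11.4%), all higher, had an unadjusted p under 0.05, beside 4.56% of all genes. Of the 15, 8 belonged to scaffolds and trafficking, 3 to kinases and phosphatases, 2 to biogenesis and 2 to other auxiliary proteins. The choroid plexus and CA1 pyramidal markers moved with that comparison as given above, and their part was not tested for these lists.

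Among 29 scaffold and trafficking genes, Arc had the largest fold changes over Control. Arc, an immediate early gene whose product drives AMPA receptor endocytosis, had 277, 193 and 215 CPM in STET_S200, 170.0, 399 and 241 CPM in STET_S100 and 297, 285 and 191 CPM in STET, against 94.1, 115 and 80.5 CPM in Control. All 9 stimulated libraries were above all 3 Control libraries, as in 0.549% of all genes. Its log2 fold change over Control was 1.24 ± 0.33 in STET_S200 (SE; adjusted p = 0.786, edgeR), 1.48 ± 0.33 in STET_S100 (adjusted p = 0.902) and 1.42 ± 0.33 in STET (adjusted p = 1.00). By DESeq2 its adjusted p was 0.0483 in STET_S100 vs Control and 0.0034 in all stimulated vs Control. DESeq2 did not call it in STET_S200 vs Control or STET vs Control. Nptx2, a secreted pentraxin that clusters AMPA receptors, had log2 fold changes of 0.33 ± 0.14, 0.33 ± 0.14 and 0.24 ± 0.14 in STET_S200, STET_S100 and STET over Control, with overlapping libraries. Nptxr, the membrane-bound pentraxin receptor, was higher without overlap in STET_S200 vs Control, by 0.11 ± 0.05 on the log2 scale, as were 5.73% of all genes. The syntaxin gene Stx4a was higher without overlap in STET vs Control, by 0.11 ± 0.05, beside 4.69% of all genes, and in STET_S200 vs Control, by 0.05 ± 0.05, beside 5.73%. Nsf, whose ATPase binds GluA2 and was the most abundant of this list by CPM, differed from Control by -0.04 to 0.04 on the log2 scale.

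Of 16 tested further auxiliary and constituent proteins, Olfm2, a secreted olfactomedin found in AMPA receptor complexes, had the smallest p. It had 39.4, 35.7 and 39.6 CPM in STET_S200, 38.6, 42.6 and 38.5 CPM in STET_S100 and 43.9, 37.5 and 36.0 CPM in STET, against 47.8, 41.3 and 45.8 CPM in Control. Only STET_S200 was separate from Control, where 5.28% of all genes were lower without overlap. The log2 fold change was -0.24 ± 0.08 in STET_S200 (SE, adjusted p = 0.786 by edgeR), -0.18 ± 0.08 in STET_S100 and -0.20 ± 0.08 in STET. Nrn1, encoding neuritin, had a log2 fold change of 0.12 ± 0.05 in STET_S100 vs Control, higher without overlap as in 5.19% of all genes. Syndig1 had 0.19 ± 0.09 in STET_S200 vs Control, with overlap, and Olfm1, the most abundant of the list, -0.10 ± 0.05 in STET vs Control, lower without overlap as in 4.2% of all genes.

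Of the 6 genes of receptor biogenesis in the endoplasmic reticulum, Frrs1l, which helps to assemble the receptor, was higher without overlap in STET_S200 vs Control. Its log2 fold change was 0.10 ± 0.04 (SE, adjusted p = 0.809 by edgeR), and 5.73% of all genes were higher without overlap there. Its values were 377, 355 and 379.7 CPM in STET_S200, 359, 346 and 357 CPM in STET_S100 and 338, 351 and 343 CPM in STET, against 341, 352 and 344 CPM in Control. Frrs1l in STET_S200 was thus above STET and Control in every library, and 6.22% of all genes were higher without overlap in STET_S200 vs STET. Cpt1c, Abhd6 and Sacm1l differed from Control by -0.07 to 0.01 on the log2 scale over the 3 comparisons. Abhd6 was lower without overlap in STET vs Control, by -0.04 ± 0.05, as in 4.2% of all genes.

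Among 16 kinases and phosphatases, Prkca, encoding protein kinase C alpha, had the smallest p, with 193, 177 and 189 CPM in STET_S200, 207, 190.2 and 224 CPM in STET_S100 and 156, 204 and 155 CPM in STET, against 173, 185 and 159 CPM in Control. Its STET_S100 libraries were above all Control libraries, as were those of 5.19% of all genes. The log2 fold change of Prkca there was 0.27 ± 0.11 (SE, adjusted p = 0.902 by edgeR). The calcineurin genes Ppp3ca and Ppp3r1 each had 0.09 ± 0.04 in STET_S200 vs Control. There Ppp3r1 was higher without overlap, beside 5.73% of all genes, and Ppp3ca overlapped. In STET_S100 vs Control Ppp3ca was higher without overlap, by 0.07 ± 0.04, beside 5.19%. Ppp1cc had -0.06 ± 0.04 in STET vs Control, lower without overlap as in 4.2% of all genes. Camk2a, the kinase subunit most closely tied to CA1 potentiation and the most abundant of the list, lay between -0.06 and -0.03 in the 3 comparisons with Control.

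The 3 RNA editing enzymes included Adarb1, which edits the Q/R site of Gria2, and Adarb2, for which no editing activity is known. Adar had 174, 178 and 176 CPM in STET_S200, 172, 178 and 184 CPM in STET_S100 and 182, 168 and 166 CPM in STET, against 191, 182 and 186 CPM in Control. STET_S200 was below Control without overlap, as in 5.28% of all genes. The log2 fold change was -0.08 ± 0.04 in STET_S200, -0.06 ± 0.04 in STET_S100 and -0.11 ± 0.04 in STET (SE, adjusted p = 0.828, 0.902 and 1.00 by edgeR). Adarb1 had -0.03 ± 0.05, 0.01 ± 0.05 and -0.09 ± 0.05 in the same order.

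Genes whose log2 CPM followed a pore-forming subunit most closely over the 12 libraries were listed among 6066 tested genes with a mean log2 CPM of at least 5, as a description. For Gria1 they were Sbk1 (Pearson r = 0.88, Spearman rho = 0.88), Dr1 (r = 0.85, rho = 0.85) and Megf11 (r = 0.85, rho = 0.94). For Gria2 they were Ksr1 (r = 0.89, rho = 0.81), Cpne7 (r = 0.89, rho = 0.87) and Mrs2 (r = 0.88, rho = 0.87). Gria3 was followed by Ap2b1 (r = 0.93, rho = 0.94), which encodes a subunit of the clathrin adaptor AP-2, Acot7 (r = 0.92, rho = 0.87) and Adgrl3 (r = 0.90, rho = 0.91). Gria4 was followed by Nomo1 (r = 0.95, rho = 0.88), Mal2 (r = 0.92, rho = 0.90) and Pde11a (r = 0.91, rho = 0.75). The 12 points are libraries of 4 groups that share mice, and each pair of values shares a library and its depth.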

How the data were processed

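The authors deposited read counts per Ensembl gene ID, 1 column for each of 12 libraries, as whole numbers without scaling. Per the labels' protocols, directional poly(A) libraries were sequenced as paired-end reads of 150 bp, with 45 M reads stated per sample. Per the submitters' processing notes the tools were STAR 2.7.1a, Trimmomatic 0.39, HTSeq 0.11.2, limma and R 4.0.2. Genome build, annotation and strand setting: not given in the sources used here. Coordinates are therefore left out. Symbols were found for 55144 of the 55471 IDs, and 55230 occur in GENCODE M21, the source of lengths and of the printed sequences.

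Library totals were adjusted with TMM factors and counts filtered with filterByExpr (minimum count 10, minimum total 15) and tested in a single quasi-likelihood fit of the 12 libraries, with group as the only term (edgeR 4.0.16, R 4.3.3, robust dispersion). P-values were adjusted by Benjamini-Hochberg over 19492 genes per comparison, with a threshold of 0.05. SEs come from the F statistic, and 95% intervals from the t distribution of the fit. DESeq2 1.42.0, limma-voom (limma 3.58.1), other scalings, filters, a replicate block, marker covariates and leaving out each library were alternatives. The scripts were tested on simulated data.

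The members, lists and tests were chosen with earlier results of these data known. Fold changes were named for members whose libraries did not overlap between groups and for the member with the smallest p in each comparison. In each further list, up to 4 genes with the smallest p against Control and the most abundant one were named. Patterns most like a subunit were the 3 highest Pearson r.

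Pools of 6 slices are the replicates, and p-values measure the spread between pools that share mice across groups. Pairs of libraries within a group differed beyond sampling noise (chi-square over degrees of freedom 4.79 to 19.5), so none was taken as a duplicate deposit; that they are separate pools rests on the labels. Same-numbered libraries of STET and Control deviated together (r = 0.17, 0.31 and 0.17), so the numbers were taken as pairs there, from the data and not from the labels. Such r values do not identify shared mice. The block changed no call. Reads carry no molecular identifiers, so counting error understates the spread.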

Additional observations from a re-analysis of the deposited data

How the results depend on the processing

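None of the 10 genes was called in any of the 7 comparisons under the 22 alternatives (21 for all stimulated against Control). The smallest adjusted p over all of them was 0.0602, for Shisa9 in all stimulated vs Control without a filter on low counts, where its other alternatives ran up to 0.999. Of 263 alternative values of the 12 named fold changes, 262 kept their direction, and Gria4 in STET_S200 vs STET turned to -0.013 with the choroid plexus covariate; the cause was not tested. Shisa9 kept its sign in the 4 comparisons with Control throughout, from -0.22 to -0.11. Cnih3 in STET_S200 vs STET was 0.06 without STET 2. Where only the low-Fabp4 libraries were used, STET_S200 had 1 library, which was assumed to vary like the others. The replicate block left 0 of the 10 genes called in each comparison. In STET vs Control each STET library correlated best with the Control library of its own number. Outside STET vs Control, r of same-numbered libraries lay between -0.32 and 0.42 over 15 pairs, of which 5 exceeded 0.1. The highest was STET_S100 2 with STET 2. Whether those pairs hold the same animals is not labelled, and r cannot settle it. Over all genes the count called was 0 by edgeR, 16 to 98 without a filter, 1 to 11 by DESeq2 and at most 8 under the others. Other lengths moved the Gria2 to Gria1 ratio to 0.480 (longest transcript) and 0.923 (coding) and the Gria2 share to 26.3% and 40.9%, because each gene is divided by a different length; leaving out a library kept them at 0.348 to 0.351 and 22.0% to 22.2%. The Gria1 to Gria2 log2 ratio difference ran from -0.0033 (without Control 3) to 0.0535 over the leave-out values. The 10 genes had at least 1296 reads in every library.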
